A study of Caenorhabditis elegans with 3 samples.

Results

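The nssp genes of Caenorhabditis elegans form a gene class whose members share the symbol prefix nssp-. They were taken here as every array feature that names a single gene with such a symbol. This gave 42 features, 1 for each of 42 genes, out of 86 nssp genes in the RefSeq annotation and out of 19300 genes and unnamed features tested in all. All 42 had a value on each of 3 arrays, so no filter removed a member, and the other 44 nssp genes were not analysed here. One further feature names nssp-12, already among the 42, together with another gene. It was left out, and its values are not given here.

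The measurements are 2-colour array ratios. Channel 2 of each array held RNA of hermaphrodite adults carrying embryos, labelled TP10, and channel 1 held a mixed reference RNA labelled wt, which all arrays share. The 3 arrays carry preparations 1, 2 and 3 of that RNA and make up the only group. The labels do not give the strain or genotype of the TP10 animals, their age or culture, or what was mixed in the reference. Nothing states that the preparations came from separate cultures, so the p-values rest only on spread between these samples, which may be technical. The main test takes that spread in part from the gene itself and in part from all genes and features together. The arrays carry different dates, and an effect of the day cannot be told apart from one of the preparation.

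A value is a log2 ratio, read as TP10 over reference and centred on the median of its array. A value of -1 is a 2-fold lower ratio than that of the median gene. No dye is named, and the direction is likely rather than settled: it rests on the order in which the descriptions give the 2 RNAs, and in that reading markers of oocytes and embryos were higher, as given below. With the opposite direction every sign below turns and every size stands. Brightness of the spots was not used here, and how many features rose above background is not known. Precision is limited by having 3 arrays. Whole animals were extracted, so fewer cells of a type and less RNA per cell cannot be told apart.

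A gene class in C. elegans is a set of genes that share a symbol prefix, given for a common property or sequence. The sources used here do not spell out the nssp prefix or give any role for a member, so none is stated. Families of short secreted peptides were set beside the class for reference, without a claim that its members are of that kind. Such peptides are made as precursors that enter the secretory pathway. Some, such as those of the neuropeptide-like nlp genes, signal between cells, and others, such as the caenacins, act in defence of the skin. In the RefSeq annotation the numbers 1 to 91 follow the order of the genes along chromosomes I to V and X, with no exception among the 86, and 5 numbers are not in the table. The number of a gene therefore gives its place, not its likeness to another member.

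Markers of oocytes, eggshell, yolk and early embryos were set beside the labelled stage. Of 22 such genes on the arrays 18 were higher (81.8%, against 22% of all genes and features), with no lower gene and a median at 1.53 log2. The highest was the eggshell gene cbd-1 at 2.57 ± 0.58 (SD, n = 3). These markers also served above in reading the direction of the ratio, and their list was chosen with earlier results of these data known. They are therefore not an independent check of the stage. Across all 19300 genes and features the 3 arrays correlated with Pearson's r of 0.862 (arrays 1 and 2), 0.85 (1 and 3) and 0.898 (2 and 3). Over the 42 nssp genes r was 0.854, 0.892 and 0.888 in the same order. These are correlations across genes of hybridisations that share one reference, given as a description.

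The nssp genes were lower in TP10 than in the reference. At an adjusted p under 0.05 (limma, Benjamini-Hochberg over all 19300), 26 of 42 (61.9%) were lower and none was higher. Among all genes and features 21.9% were lower and 22% higher. A difference of at least 2-fold was found for 11 of the lower genes, or 26.2% of the class, where 8.3% of all genes and features were lower by as much. That count was 10 with values as deposited, centring on the mean, quantile normalization or scaling to one spread. In each of these nssp-82 fell just short of 2-fold. Without preparation 2 the count at 2-fold was 7, and a one-sample test without moderation of the variances called 0 genes in either count. How many of all genes and features passed in these settings is not given here. The unmoderated test has 2 degrees of freedom per gene. At an unadjusted p under 0.05 it had 20 of the 42 lower, as were 17.9% of all genes and features. The median of the 42 was -0.50 log2, a 1.41-fold lower ratio, against 0.01 for all 19300. At an unadjusted p under 0.05 in limma, 29 nssp genes were lower, as were 25.1% of all genes and features, and 2 nssp genes were higher. The share of all genes and features higher by that measure is not given here. It cannot be under the 22% found with adjusted p. On all 3 arrays 33 nssp genes (78.6%) were below 0, which 33.5% of all genes and features were, and 2 were above 0 on all 3, which 33.8% of all were.

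**Figure D1:**
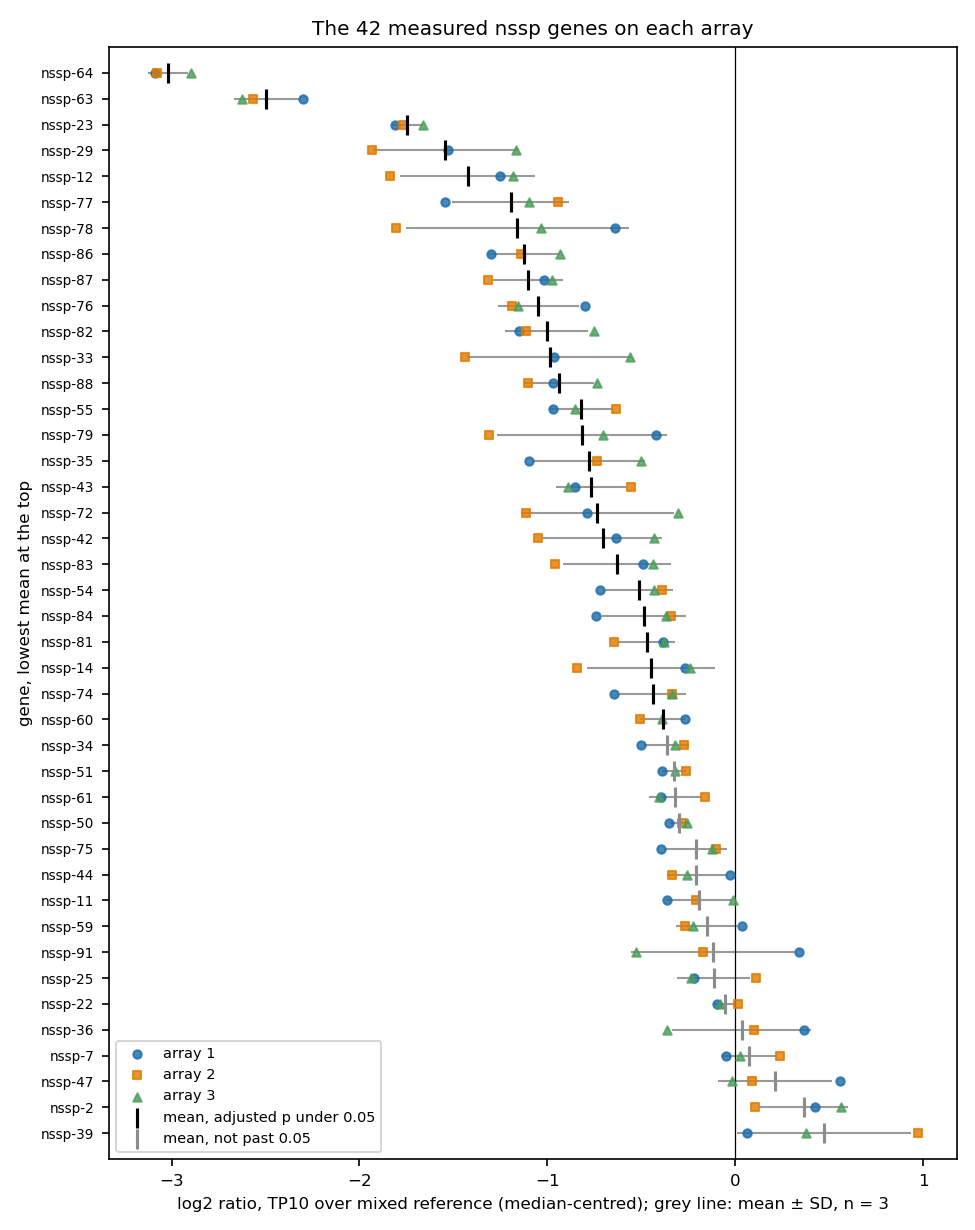
Each row is 1 nssp gene, with its log2 ratio on arrays 1, 2 and 3 as a circle, a square and a triangle on the horizontal axis, the mean as a tick and mean ± SD as a grey line. The class runs from -3.02 to 0.47, with nssp-64 and nssp-63 set apart at the low end.

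The members differed from each other by more than the arrays did. The SD between the 42 means was 0.69 log2, while the median SD of a member between arrays was 0.19, from 0.049 for nssp-50 to 0.59 for nssp-78. The same held for all genes and features, where the SD between means was 0.77 and the median SD between arrays 0.23. The median member stood at -0.57 on array 1, -0.59 on array 2 and -0.42 on array 3. Array 3 had the smallest spread for the class (SD 0.65, against 0.72 and 0.80), as it did for all genes and features (SD 0.674, against 0.888 and 0.848).

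At the low end stood a pair from chromosome V. nssp-64 (sequence name F17C11.2) gave -3.09, -3.08 and -2.90 on arrays 1 to 3, a mean of -3.02 ± 0.11 (SD, n = 3), or 8.11-fold lower (limma, adjusted p = 9.54e-07). A lower mean was found for 0.324% of the 15112 single genes tested. For nssp-63 (F58B4.3) the values were -2.30, -2.57 and -2.62, a mean of -2.50 ± 0.17, or 5.64-fold lower (limma, adjusted p = 2.32e-06). The arrays overlapped for neither gene with those of any other member, and on each array nssp-64 was the lower of the pair, by 0.79, 0.51 and 0.27 log2.

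Below a further gap came 9 genes lower by 2-fold or more. nssp-23 (ZK971.1, chromosome II) had values of -1.81, -1.77 and -1.66, a mean of -1.75 ± 0.078 and a 3.36-fold lower ratio (limma, adjusted p = 1.12e-05). Its arrays lay closer together than those of any other gene in this range. On nssp-29 (C54C6.5, chromosome III) the arrays read -1.53, -1.93 and -1.17, with a mean of -1.54 ± 0.38. On nssp-12 (C13A10.2, chromosome II) they read -1.25, -1.84 and -1.18, with a mean of -1.42 ± 0.36. Both of these genes were lowest on array 2.

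The other 6 of the 9 lie on the X chromosome and fall within a narrow band. nssp-77 (C07A12.2) was lowest on array 1, at -1.54, -0.94 and -1.10, with a mean of -1.19 ± 0.31 (SD, n = 3). nssp-78 (T22E5.1) had the widest spread of all members, with -0.64, -1.81 and -1.03 and a mean of -1.16 ± 0.59. Less spread was seen for nssp-86 (C07B5.3) at -1.30, -1.14 and -0.93, a mean of -1.12 ± 0.19. The remaining 3 were nssp-87 (F41E7.7) at -1.10 ± 0.18, nssp-76 (T07D1.3) at -1.05 ± 0.22 and nssp-82 (C18A11.2) at -1.004 ± 0.22. Neighbours in this order differ by far less than their SDs and cannot be ranked. The adjusted p of these 6 and of nssp-29 and nssp-12 ran up to 0.00118 (limma).

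Another 15 genes were lower by less than 2-fold, with means from -0.99 to -0.39 and adjusted p from 5.16e-04 to 0.0482 (limma). In the upper part of this range nssp-33 (ZK370.6) read -0.97, -1.44 and -0.56 on arrays 1 to 3, and nssp-88 (C05E7.3) read -0.97, -1.10 and -0.74. nssp-55 (C12D5.3) stood at -0.97, -0.64 and -0.85. For these genes every array was below -0.5. A wider spread marked nssp-79 (F41B4.2) with -0.42, -1.31 and -0.71 and nssp-72 (Y43F8A.1) with -0.79, -1.11 and -0.30. nssp-35 (Y45F3A.4) was lowest on array 1, at -1.10, -0.74 and -0.50, and nssp-43 (F35H10.2) gave -0.85, -0.55 and -0.89. All of these were below 0 on each array.

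The smaller changes were less secure. nssp-42 (R13A1.5) had a mean of -0.71 ± 0.32, nssp-83 (C47D2.1) of -0.63 ± 0.29 and nssp-54 (C12D5.5) of -0.51 ± 0.18 (SD, n = 3). nssp-84 (R09F10.5) had a mean of -0.48 ± 0.22, nssp-81 (C39D10.2) of -0.47 ± 0.15 and nssp-14 (F02E11.2) of -0.45 ± 0.34. The last 2 were nssp-74 (C25G6.4) at -0.44 ± 0.18 and nssp-60 (F07C3.2) at -0.39 ± 0.12, whose adjusted p was 0.0481 (limma). Leaving out 1 preparation ended the call for these 8 and for nssp-72. Without preparation 1 the adjusted p was 0.0557 for nssp-54, 0.107 for nssp-74 and 0.0900 for nssp-84. Without preparation 2 it was 0.396 for nssp-14, 0.0548 for nssp-42, 0.256 for nssp-60, 0.0545 for nssp-72, 0.0798 for nssp-74, 0.176 for nssp-81 and 0.0939 for nssp-83. Without preparation 3 it was 0.150 for nssp-60, 0.0685 for nssp-74 and 0.0540 for nssp-81. The other 17 lower genes stayed past the threshold whichever preparation was left out.

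Not past the threshold were 16 genes, 11 with a mean below 0 and 5 above. Nearest to it were nssp-34 (T26G10.5), with -0.50, -0.27 and -0.32 and an adjusted p of 0.0594 (limma), and nssp-51 (K03B4.4), with -0.39, -0.26 and -0.32 and an adjusted p of 0.0842. nssp-34 passed under 3 other settings, at 0.0350 with quantile normalization, 0.0447 with scaling to one spread and 0.0246 with a filter on variable genes, and nssp-51 under the last of these, at 0.0487 (limma). That filter chooses genes by the same spread that the test uses. Under it the adjusted p of nssp-64 fell from 9.54e-07 to 7.91e-94 (limma), so p-values with the filter are too small to rely on. nssp-61 (ZK856.6) and nssp-50 (C50H11.8) had means of -0.32 ± 0.14 and -0.30 ± 0.049 (SD, n = 3). These 4 were below 0 on every array. Closer to 0 stood nssp-75 (C25G6.1) at -0.21 ± 0.16, nssp-44 (D2096.9) at -0.21 ± 0.16, nssp-11 (Y39F10A.1) at -0.19 ± 0.18 and nssp-59 (F28A12.3) at -0.15 ± 0.16. nssp-25 (D2089.3) had a mean of -0.11 ± 0.19, and nssp-22 (T10B9.9) of -0.055 ± 0.059. On nssp-91 (F38E9.6) the arrays disagreed in sign, at 0.34, -0.17 and -0.53.

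The 5 genes with a mean above 0 came from chromosomes I, III and IV. nssp-39 (M03D4.3) was the highest member, with 0.065, 0.98 and 0.38 on arrays 1 to 3 and a mean of 0.47 ± 0.46 (limma, adjusted p = 0.0599). Array 2 carried most of its mean, and without preparation 1 the gene passed, at 0.68 and an adjusted p of 0.0171. nssp-2 (C45E1.4) gave 0.42, 0.10 and 0.57, a mean of 0.36 ± 0.24 (limma, adjusted p = 0.0761). Both were above 0 on every array. The other 3 had mixed signs: nssp-47 (C43F9.7) at 0.21 ± 0.30, nssp-7 (C04F12.5) at 0.072 ± 0.15 and nssp-36 (Y41C4A.6) at 0.034 ± 0.37 (SD, n = 3). nssp-36 lay on either side of 0 depending on how the arrays were scaled.

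Many members share their place in the annotation with another gene. The spans of 10 nssp genes overlap a protein-coding gene, and neither the position of the array features nor the strand they read is known here, so RNA of the overlapping genes cannot be told apart. Among the 10 were 3 of the 5 genes above 0, namely nssp-39, which overlaps the Notch pathway transcription factor gene lag-1, nssp-7, which overlaps the ribosomal protein gene rpl-14, and nssp-47, which overlaps nkb-2, a sodium pump subunit gene. Here lag-1 was higher at 0.81 ± 0.37 (SD, n = 3). rpl-14 at -0.090 ± 0.38 and nkb-2 at -0.033 ± 0.40 were not past the threshold. Of the genes that overlap lower members, tsp-9 (nssp-74) was lower at -0.46 ± 0.20. F07C3.3 (nssp-60) at -0.25 ± 0.15, F41E7.6 (nssp-87) at -0.0064 ± 0.082 and C39D10.5 (nssp-81) at 0.025 ± 0.14 were not past the threshold. Of the 10 nssp genes, 5 were lower, with a median of -0.30 log2. Of the other 32, 21 were lower, with a median of -0.72. Both sets hold more lower genes than the 21.9% of all genes and features, and the difference between them was not tested.

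The X chromosome of C. elegans is largely silent through much of germ-line development, and the germ line makes up much of an adult hermaphrodite. The class has 18 of its 86 genes there, of which 14 were measured. All 14 had a mean below 0, and 12 of them (85.7%) were lower, with a median of -0.87 log2. Of all genes and features 49.2% had a mean below 0. The share among all genes on X is not given here, but their median was itself below 0. Of all 2256 measured genes on X, 28.2% were lower and 10.2% higher, and their median was -0.12. On the autosomes 14 of 28 nssp genes were lower, with a median of -0.38. Of 12784 autosomal genes 23% were lower and 24.3% higher. Both nssp shares were above those of all genes in the same chromosomes, and the difference between X-linked and autosomal members was not tested.

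By chromosome, the measured nssp genes that were lower numbered 6 of 10 on V (25.3% of all genes there), 3 of 6 on II (23.1%), 3 of 5 on III (19.5%), 2 of 5 on IV (23.6%) and none of 2 on I (21.1%). The 2 on I, nssp-2 and nssp-7, had adjusted p of 0.0761 and 0.726 (limma), and 6 further nssp genes of that chromosome were not analysed here. Of the 42, 39 lay below the median of all genes on their own chromosome. The exceptions were nssp-2 on I and nssp-39 and nssp-47 on IV.

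**Figure D2:**
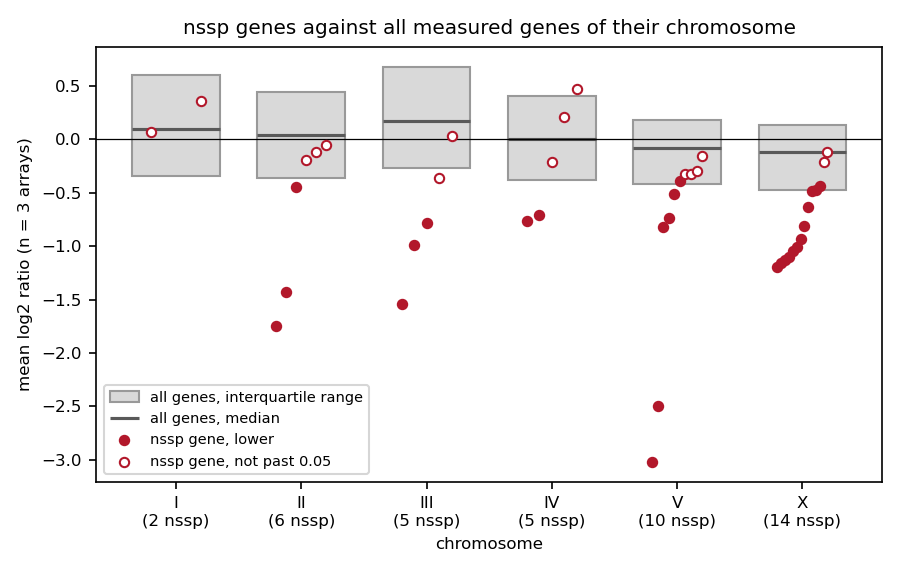
Mean log2 ratios (vertical axis, n = 3 arrays) of nssp genes on each chromosome, filled where lower at an adjusted p under 0.05, over grey boxes for the interquartile range and lines for the median of all measured genes there. On X the 14 points all lie below 0, from -1.19 to -0.12, and the 2 lowest points of all are on V.

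The measured genes nearest to the nssp genes gave a second reference of similar place. For each member the nearest measured gene on either side was taken, with at most 2 unmeasured protein-coding genes between them. Of 82 such neighbours, none an nssp gene, 22 (26.8%) were lower and 8 (9.76%) higher. Their median was -0.12 log2. Of all single genes 23.7% were lower and 22.2% higher, so the neighbours had a similar share of lower genes and a smaller share of higher ones, a difference that was not tested. Of the 82, 9 overlap their nssp gene and do not lie beside it. Without them 21 of 73 (28.8%) were lower and 6 (8.22%) higher. Of the 42 nssp genes 25 had a mean below those of both neighbours, as had 22 of the 33 with no overlapping neighbour. The share of all genes with a mean below both neighbours is not given here, so these counts are a description only.

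Single places show both cases. nssp-29, at -1.54, had the tubulin gene ben-1 on one side at 0.94 ± 0.57 (SD, n = 3) and C54C6.4 on the other at 0.24 ± 0.15. nssp-78, at -1.16, lies next to the muscle troponin T gene mup-2, which was higher at 0.81 ± 0.49. nssp-76, at -1.05, stood between gid-2 at -0.046 ± 0.20 and the splicing regulator gene fox-1 at -0.0077 ± 0.19. At each of these places the nssp gene was lower and the neighbours given were not. Elsewhere the neighbour stood further below 0: nep-26, named as a neprilysin-type peptidase gene, stood at -2.57 ± 0.46 beside nssp-23, C18A11.1 at -2.33 ± 0.26 beside nssp-82, and spig-13 at -1.88 ± 0.60 beside nssp-43. nssp-39 overlaps lag-1, which was higher at 0.81 ± 0.37, and its neighbour on the other side, zen-4, a kinesin gene of cell division, was higher at 1.39 ± 0.20. nssp-44, with a mean of -0.21, overlaps praf-3 at 0.59 ± 0.22 and has D2096.10 at 0.84 ± 0.32 on its other side, both higher.

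**Figure D3:**
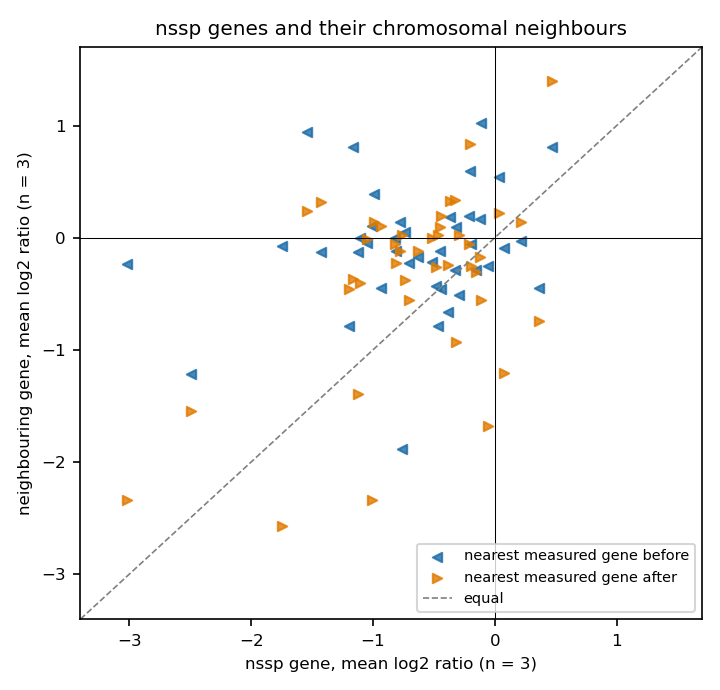
Each point sets the mean log2 ratio of an nssp gene (horizontal axis) against that of its nearest measured neighbour before or after it on the chromosome (vertical axis), n = 3 arrays for both. Of the 84 points 62 lie above the dashed line of equal values, and the median neighbour is at -0.12. The same count for all genes is not given here. In 9 of the 84 the neighbour overlaps the nssp gene.

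Pairs of measured nssp genes with at most 10 genes between them occur at 3 places. On chromosome V, nssp-54 and nssp-55 are separated by C12D5.4 alone. Both were lower, at -0.51 and -0.82, and nssp-55 was the lower by 0.25, 0.25 and 0.42 log2 on the 3 arrays, while C12D5.4 stood at -0.0066 ± 0.065 (SD, n = 3). On X, nssp-74 and nssp-75 flank npr-11, a neuropeptide receptor gene. nssp-74 was lower at -0.44, nssp-75 stood at -0.21, not past the threshold (limma, adjusted p = 0.277), and the difference between them was -0.25, -0.23 and -0.21 on the 3 arrays. In both places the gene in the middle was not past the threshold. The tetraspanin gene tsp-9, which overlaps nssp-74, was lower at -0.46 ± 0.20 and read -0.68, -0.40 and -0.30 on arrays 1 to 3, close to the -0.64, -0.33 and -0.34 of nssp-74.

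The low pair nssp-63 and nssp-64 has 6 protein-coding genes between its members, of which 3 were measured. Next to nssp-63 was scvp-1, lower at -1.54 ± 0.57 (SD, n = 3), and before it nas-31, an astacin metalloprotease gene, lower at -1.22 ± 0.72. Next to nssp-64 was the cuticle collagen gene col-153, lower at -2.34 ± 0.33. Between them F58B4.5 stood at -0.029 ± 0.22 and F17C11.26 at -0.23 ± 0.24, neither past the threshold (limma, adjusted p = 0.90 and 0.25). The low values at this place were therefore not shared by every gene in it. This stretch was chosen after its values were seen.

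**Figure D4:**
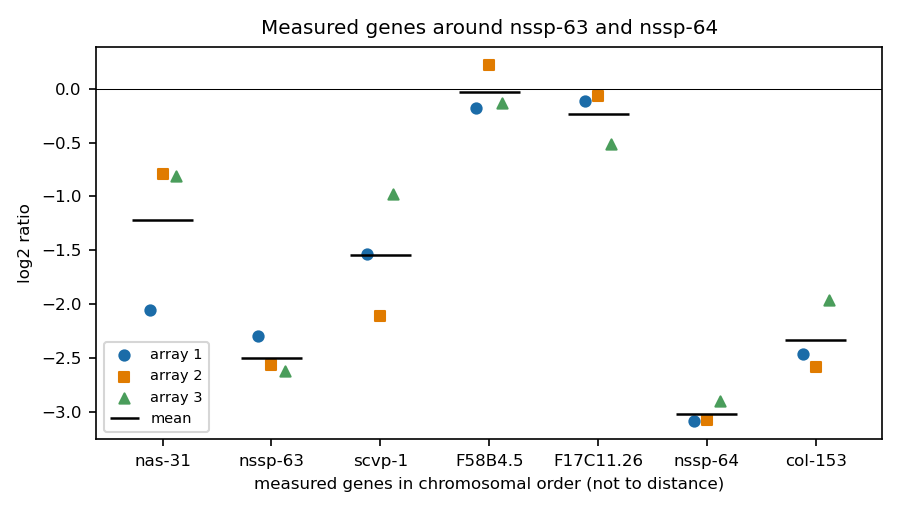
Log2 ratios (vertical axis) on arrays 1, 2 and 3 (circle, square, triangle) with their mean (line) for the 7 measured genes from nas-31 to col-153, in chromosomal order. Of the 7, 5 lie well below 0 with means from -3.02 to -1.22, and the 2 between scvp-1 and nssp-64 lie near 0.

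Families of short secreted peptides gave the following values, beside 21.9% lower and 22% higher among all genes and features. Of 26 genes of the nematode-specific peptide families a to e (nspa to nspe), 13 were lower and none higher, and the median was -0.33 log2. The lowest was nspc-20 at -2.75 ± 0.28 (SD, n = 3). The fungus-induced and caenacin genes, peptides of the skin's defence, had 9 of 19 lower and 1 higher. Their median was -0.35, from cnc-1 at -2.50 ± 0.19 to fipr-15 at 0.63 ± 0.45. Saposin-like and antibacterial factor genes, which encode antimicrobial proteins, had 10 of 19 lower and 1 higher, with a median of -0.44, from spp-18 at -2.13 ± 0.34 to spp-1 at 0.53 ± 0.49. Among neuropeptide-like nlp genes 40 of 53 (75.5%) were lower and none higher, with a median of -1.09, the lowest being nlp-8 at -3.28 ± 0.52. The nssp share of 61.9% lies within the range of these families, and no difference between families was tested. Several of the nsp families hold near-identical copies, whose signals on an array cannot be told apart.

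Genes of the machinery that exports secreted proteins were mostly higher. Of 31 measured genes of the translocon, signal peptidase, folding helpers, sugar transfer and vesicle coats, 22 (71.0%) were higher and 1 was lower, and the median stood at 0.62 log2. They ran from copz-1, a coat subunit gene, at -0.70 ± 0.39 to ostb-1, an oligosaccharyl transferase subunit gene, at 1.56 ± 0.65 (SD, n = 3). Of all genes and features 22% were higher and 21.9% lower.

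Markers of tissues of the whole animal are given as measured values, and their part in the nssp result was not tested. Of 27 neuron markers 18 were lower and none was higher, with a median of -0.64 log2 and a range of means from -2.83 to 0.62. Over arrays 1 to 3 the medians were -0.92, -0.61 and -0.39. Markers of pharynx and its glands were lower in 12 of 23 and higher in 2, with a median of -0.48. For hypodermis and seam the counts were 10 lower and 4 higher of 21, with a median of -0.38, from rol-6 at -3.75 ± 0.45 to the adult collagen gene col-19 at 1.97 ± 0.14 (SD, n = 3). Intestine markers went both ways, 8 lower and 9 higher of 23, with a median of 0.11. Sperm and male markers had 6 lower (22.2%) and 4 higher (14.8%) of 27, with a median of 0.023. Of all genes and features 21.9% were lower and 22% higher, so the lower share of the sperm and male markers was near that of all genes.

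**Figure D5:**
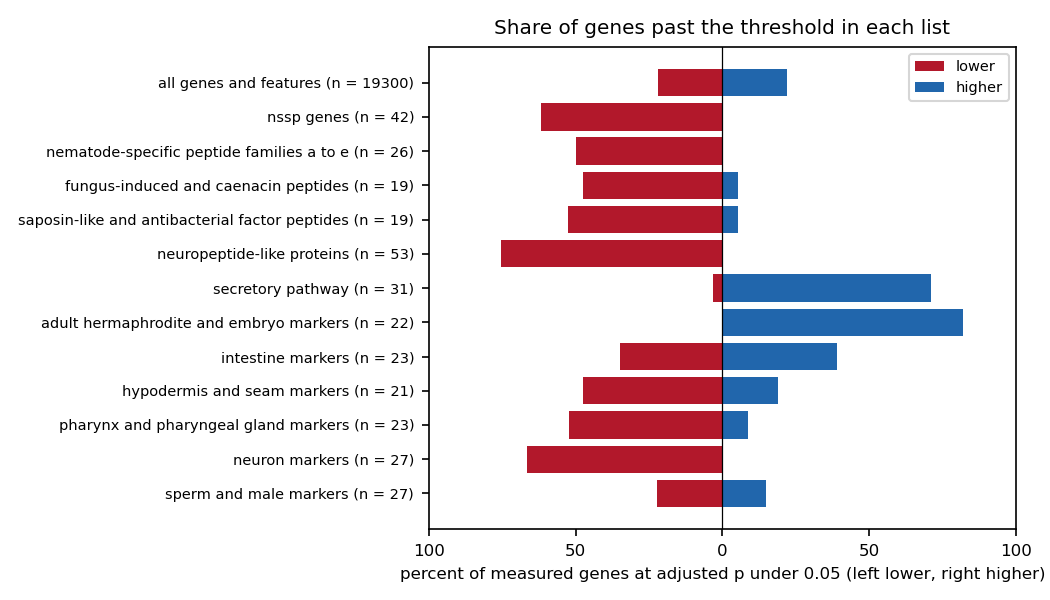
Bars give the percent of measured genes lower (left) and higher (right) at an adjusted p under 0.05 for all genes and features, the nssp genes and each list. The nssp bar reaches 61.9% on the lower side and is empty on the higher side, while all genes and features are near balance at 21.9% and 22%.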

How the data were processed

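For 3 arrays and 20000 features the authors deposited log2 ratios of the channels. That the scale is log2 was inferred: turned back to plain ratios, at least 99.98% of values per array were whole thousandths (within 0.01 of one). The array medians were -0.00868, 0.0172 and 0.0101. Medians so near 0 make it likely that the ratios were centred before deposit, but no source used here states it. Background correction, spot filters and normalization are not given in the sources used here. Of the features, 15655 name 1 gene, 198 several, and 4147 are not listed in the platform annotation. By gene identifier 15569 matched RefSeq (assembly WBcel235), which gave symbols, chromosomes and neighbours. Its coordinates are not printed because the build behind the array is unknown.

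Features with a value on all 3 arrays were kept, those of 1 gene averaged, and each array centred on its median. An intercept-only limma model (version 3.58.1, R 4.3.3, moderated by eBayes) gave a two-sided test of each mean ratio against 0. Its p-values were adjusted by Benjamini-Hochberg over 19300 with a threshold of 0.05, and the procedure was tested on simulated data. The reference has no spread of its own in this test, and no array with exchanged dyes is named. Every nssp gene is named with its values. From each other list the lowest and highest gene past the threshold could be named. Members and lists were chosen with earlier results of these data known. No protein or promoter sequence was used here.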

Additional observations from a re-analysis of the deposited data

How the results depend on the processing

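The count of 26 lower nssp genes was 25 to 27 in 9 settings that kept all preparations and moderated variances. These were 2 other centrings (none, and on the mean), quantile normalization, scaling to one spread, robust eBayes, array weights, separate features, genes present on 2 arrays or more, and a filter that drops the tenth of genes most variable between arrays. Without 1 preparation they numbered 19 to 23, those at least 2-fold lower 7 to 12, and the higher ones 0 to 1. The share of all genes and features past the threshold in each setting is not given here. Whether a fall in these counts is particular to the class is therefore not known. Of the 26, 16 passed under all of these settings, and nssp-78 passed under all but the filter on variable genes, which left it out. No called gene changed sign. A one-sample test without moderation, on 2 degrees of freedom per gene, called 0 lower genes and 0 lower by 2-fold, although 20 nssp genes were lower at an unadjusted p under 0.05, as were 17.9% of all genes and features. The count of higher genes was 0 and became 1 with array weights, quantile normalization or scaling (nssp-39 in each), and 2 with the filter on variable genes (nssp-39 and nssp-2). Lower calls were gained by nssp-34 with quantile normalization, scaling or that filter, and by nssp-51 with the filter. The filter chooses genes by the spread that the test uses, so its p-values are too small. Calls gained only with it, those of nssp-2 and nssp-51, carry no weight. nssp-36 reversed to -0.026 with array weights, -0.032 with quantile normalization, -0.028 with scaling and -0.13 without preparation 1. Leaving out 1 preparation gave -0.13 to 0.23 for nssp-36, -0.012 to 0.13 for nssp-7 and -0.35 to 0.085 for nssp-91. nssp-60 missed the threshold as deposited or centred on the mean, and nssp-14 did with genes present on 2 arrays or more. The causes were not tested. If the ratios were centred before deposit, as their medians near 0 make likely, no setting can show a change that most genes share. No paired analysis was possible because there is only 1 group.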

Other observations

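A set of nssp genes was lower on array 2 than on both other arrays. Array 2 was not the low array of the class as a whole. The lowest value was on array 1 for 18 members, on array 2 for 17 and on array 3 for 7. The gap below was computed for array 2 only. The value on array 2 lay more than 0.4 log2 below the mean of arrays 1 and 3 for 9 of 42 genes (21.4%), against 12.9% of all 19300 genes and features. They were nssp-78 (a gap of -0.97), nssp-79 (-0.75), nssp-33 (-0.67), nssp-12 (-0.62), nssp-14 (-0.59), nssp-29 (-0.59), nssp-72 (-0.57), nssp-42 (-0.52) and nssp-83 (-0.49). The gap went the other way by as much for 1 gene, nssp-39, at 0.75 (9.74% of all genes and features). The same lower reading on array 2 was found for 9 of 21 hypodermis and seam markers, 9 of 23 pharynx markers, 15 of 53 nlp genes, 5 of 19 fungus-induced and caenacin genes, 6 of 26 nspa to nspe genes, 6 of 27 sperm and male markers, 5 of 31 secretory pathway genes, 3 of 19 saposin-like and antibacterial factor genes, 3 of 27 neuron markers, 1 of 22 adult and embryo markers and none of 23 intestine markers. These counts describe 1 preparation, were made after the values were seen and have no test.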
